A study of Mus musculus with 36 samples.

Results

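Wild-type FOXA1 (WT) was compared with the empty control construct (EV) in primary mouse prostate organoids at day 11. The comparison used the 3 libraries labelled WT, day 11, and the 3 labelled EV, day 11, chosen by construct and time point, so 6 of the 36 libraries of the series. Organoids are epithelial structures grown from single cells in a gel. Cells carrying an inducible pCW construct, which links FOXA1 to the red protein DsRED through a 2A peptide, were sorted for DsRED, seeded in triplicate and kept apart afterwards, and doxycycline at 500 ng/mL was used to switch the transgene on. The series also holds the FOXA1 variants FE255del and R219S, and sampling was at days 0, 1 and 11, each time in 3 cultures of every construct. Each construct was 1 sorted population, so the 3 replicates are cultures of that population and p-values measure the spread between such cultures, not between animals.

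FOXA1 is a forkhead transcription factor that can bind its sites in closed chromatin and open them for other factors. In prostate epithelium it works with androgen signalling and is needed for the luminal secretory state, and it also acts in the bladder, airway, liver and gut epithelia, where its relatives share its sites. Prostate epithelium has a basal layer, marked by keratins 5 and 14 and by p63, and a luminal layer, marked by keratins 8 and 18.

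All values are normalised read counts scaled to library size (CPM, a level per gene, not per length), and differences are log2 fold changes of WT over EV with their standard error. "Rose", "fell" and "changed" are used only for genes past an adjusted p of 0.05 in edgeR's quasi-likelihood test over all genes.

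The targeted gene, Foxa1 (chr12:57540628-57546916, minus strand, mm10), read 280.2, 273 and 253 CPM in the WT libraries, against 217, 233 and 241 CPM in the EV libraries. The groups did not overlap, and the difference was 0.22 ± 0.060 (adjusted p = 0.00269). At day 1 the same difference was 0.87 ± 0.060 (adjusted p = 9.27e-15), with means of 414 CPM in WT and 227 CPM in EV. Whether reads from the transgene were counted on the Foxa1 row is not given in the sources used here. Foxa2 was near 0 in both groups, with 6 counts in all in WT and 2 in EV, and Foxa3 did not pass the filter on low counts.

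The 6 libraries held between 64742732 and 83847121 counts, and the 36 libraries between 61476938 and 102385337. Replicates of a group correlated at 0.996 or more in log2 CPM. One library of each group stood apart in the level of Neat1, a nuclear noncoding RNA. It read 763, 773 and 325 CPM in WT and 324, 922 and 680.2 CPM in EV. WT replicate 3 and EV replicate 1 were thus low together, and the mitochondrial share was also lowest in these libraries, at 2.20% in WT and 2.31% in EV. The deviations of both libraries from their group means correlated at 0.654 over the more abundant genes. The other pairs of a WT and an EV library lay between -0.647 and 0.592. With 3 libraries per group such deviations depend on each other, so the value cannot decide whether the 2 libraries share a source. Without WT replicate 3 and EV replicate 1, 6676 genes passed in place of 7385, and none of these calls changed direction. The epithelial markers Epcam and E-cadherin were abundant in both groups, with Epcam at 862, 895 and 1034 CPM in WT and 1165, 1121 and 1189 CPM in EV, and Cdh1 (E-cadherin) at 1404, 1382 and 1415 CPM in WT and 1118, 1117 and 1101 CPM in EV.

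In all, 7385 of the 18176 genes tested, or 40.6%, differed between WT and EV at day 11. Of these 3810 (21.0%) were higher and 3575 (19.7%) lower in WT, and the median over all genes was 0.01. With total count scaling 4663 were higher and 3125 lower, with a median of 0.054. The difference exceeded 2-fold for 1031 genes that rose and 862 that fell. These shares are the background against which the counts of every gene group below stand. Groups with most members on one side included interferon response, MHC class I, basal, hemidesmosome, and glycolysis and hypoxia genes, lower in WT, and genes of DNA replication and mitosis, higher in WT.

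**Figure D1:**
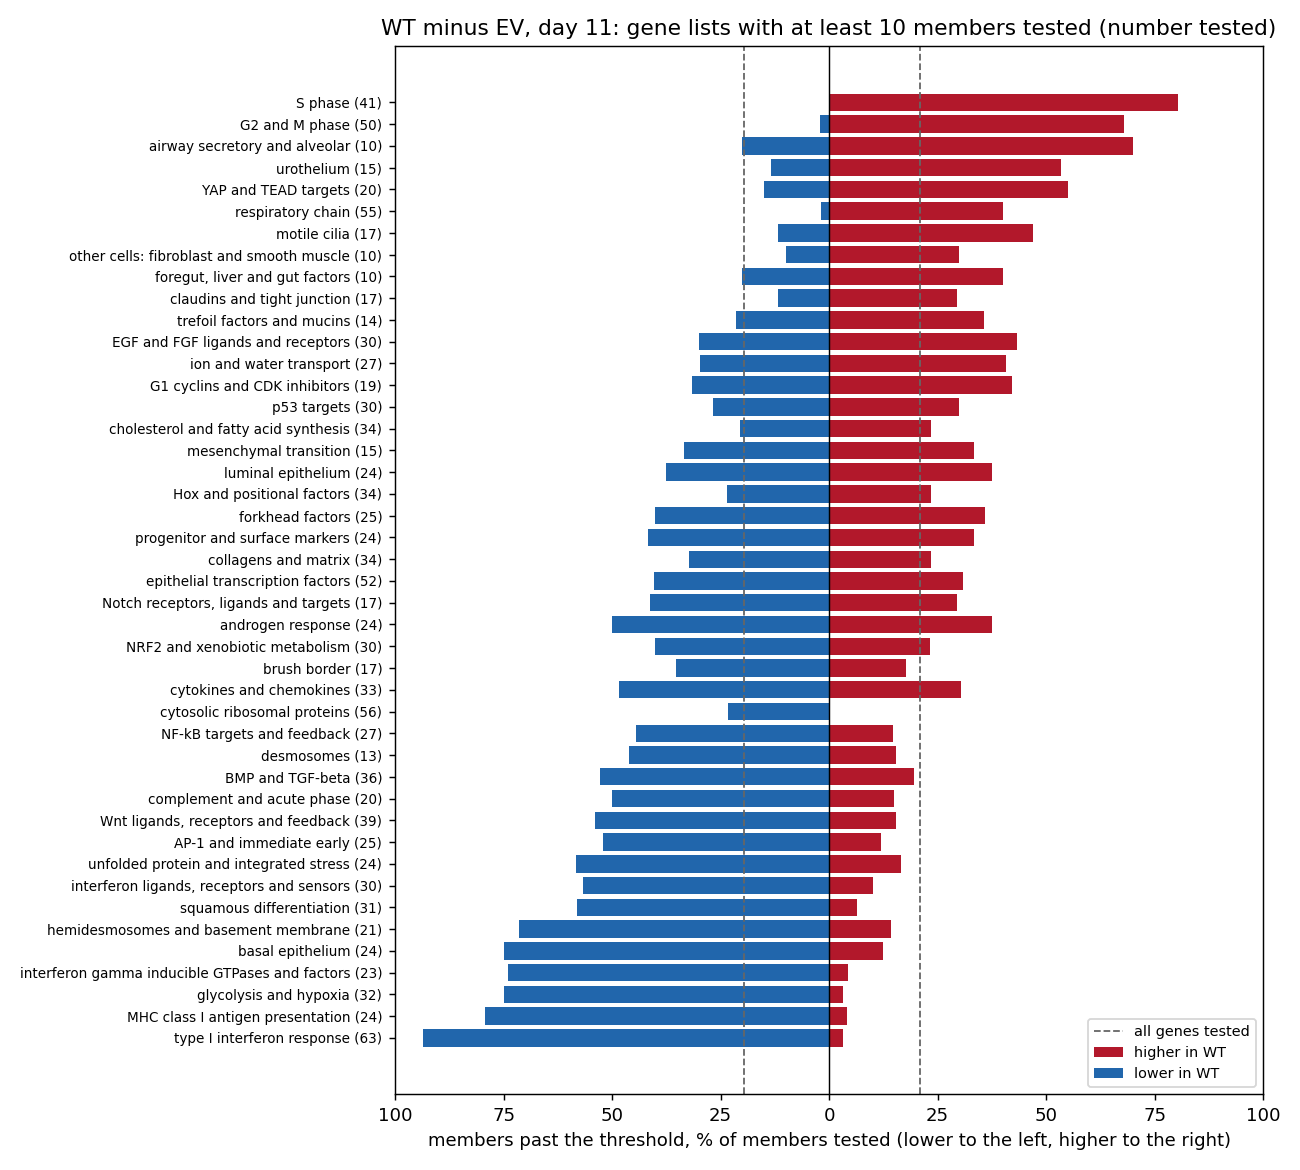
Members of each gene list past the threshold in WT minus EV at day 11, as a percentage of the members tested (number in brackets), with genes lower in WT drawn to the left and genes higher in WT to the right; dashed lines give the shares over all genes tested. The type I interferon list lies at the bottom with 59 of 63 members lower, and the S phase list at the top with 33 of 41 members higher.

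Interferons are secreted antiviral signals. Type I interferons act through a transcription factor complex that holds IRF9, and its members bind an element in the promoters of their target genes and switch on antiviral effectors. Of the 63 type I interferon response genes tested, 59 fell and 2 rose, with a median of -1.40. All 3 WT libraries lay below all 3 EV libraries for 58 of the 63, against 22.3% of all genes. The list was compiled with earlier results of these libraries in view, so its direction is not independent evidence.

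The core of the element that this complex binds was searched as GAAA, any 2 bases, GAAA, on both strands, where matches may overlap. It occurred in 3.44% of the 32851 promoter windows of RefSeq genes and in 3.01% of the 15154 windows of genes tested here. Each window had 300 bases, from 250 before to 50 after the start of a transcript (GRCm38.p6). Of the 60 windows of type I interferon list members 30 held it, and 49 genes of the list had a window. Among genes that fell by more than 2-fold, 70 of 741 windows (9.45%) held it, and among genes that rose by more than 2-fold 25 of 873 (2.86%). The genes that fell include members of the interferon list, so their share is not evidence separate from that of the list. The windows of 3 genes that fell are shown because they carry 3, 2 and 1 copies. Capitals mark the matches, on either strand, and the 3 in Isg15 overlap. The windows lie at chr4:156200769-156201068 (minus strand) for Isg15, chr19:34640639-34640938 (plus strand) for Ifit1 and chr12:26456403-26456702 (minus strand) for Rsad2.
Isg15: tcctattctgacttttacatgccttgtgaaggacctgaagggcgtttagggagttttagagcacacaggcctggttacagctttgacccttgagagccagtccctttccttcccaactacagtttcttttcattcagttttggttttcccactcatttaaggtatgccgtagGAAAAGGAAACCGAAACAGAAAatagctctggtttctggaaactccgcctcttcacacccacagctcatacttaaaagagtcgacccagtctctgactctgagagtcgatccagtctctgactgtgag
Ifit1: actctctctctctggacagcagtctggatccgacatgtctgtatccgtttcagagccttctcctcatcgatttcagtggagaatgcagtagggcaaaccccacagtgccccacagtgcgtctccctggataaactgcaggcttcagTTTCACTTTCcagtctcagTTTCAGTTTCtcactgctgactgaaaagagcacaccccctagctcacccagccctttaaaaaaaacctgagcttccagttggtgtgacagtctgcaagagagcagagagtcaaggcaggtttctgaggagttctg
Rsad2: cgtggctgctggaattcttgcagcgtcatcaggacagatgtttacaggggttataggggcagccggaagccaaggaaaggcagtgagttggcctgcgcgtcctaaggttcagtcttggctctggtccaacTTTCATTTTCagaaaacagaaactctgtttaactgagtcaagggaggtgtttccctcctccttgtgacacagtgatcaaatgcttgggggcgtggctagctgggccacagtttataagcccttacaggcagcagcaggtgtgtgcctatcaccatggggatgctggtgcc

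These 3 genes, chosen after their values were seen, all fell. Isg15, a ubiquitin-like modifier, read 3.74, 5.35 and 5.33 CPM in WT, against 51.6, 47.2 and 60.9 CPM in EV, a difference of -3.48 ± 0.27. Ifit1, which binds viral RNA, read 19.1, 20.3 and 20.6 CPM in WT and 44.5, 49.2 and 51.3 CPM in EV (-1.27 ± 0.19). Rsad2, which encodes the antiviral enzyme viperin, read 1.89, 2.28 and 3.63 CPM in WT and 15.2, 17.5 and 18.5 CPM in EV (-2.73 ± 0.31). The window of Oasl2, a relative of the OAS enzymes, held no match, and Oasl2 read 25.8, 32.5 and 26.6 CPM in WT and 135, 169 and 193 CPM in EV.

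Among the effectors, Ifi27l2a had the largest difference of the list. It read 2.77, 2.69 and 2.61 CPM in WT, against 56.7, 64.0 and 92.5 CPM in EV (-4.72 ± 0.40, adjusted p = 2.68e-10). Oas3 and Oas2, which make the 2-5A second messenger when they meet double-stranded RNA, differed by -4.03 ± 0.34 and -3.58 ± 0.41. Zbp1, a sensor of Z-form nucleic acid, read 1.32, 1.84 and 1.86 CPM in WT and 17.0, 25.6 and 24.1 CPM in EV (-3.74 ± 0.24). Apol9b and its close neighbour Apol9a differed by -3.88 ± 0.34 and -3.55 ± 0.32. These 2 genes, like the members of the Ifit, Oas1 and Gbp families, have near-identical copies between which the counting could split reads.

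The factors that carry the signal were lower as well. Irf9 read 51.1, 56.6 and 51.9 CPM in WT and 111, 133 and 136 CPM in EV (-1.25 ± 0.11). Irf7, a factor that amplifies type I interferon production, read 13.6, 15.3 and 13.9 CPM in WT and 77.1, 103 and 129 CPM in EV (-2.85 ± 0.23). No WT library overlapped an EV library for either factor.

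The 2 members that rose were Ifit2 and Ifit1bl1. Ifit2, a relative of Ifit1 whose 2 promoter windows held no match, read 65.7, 60.6 and 67.9 CPM in WT and 30.1, 31.5 and 33.6 CPM in EV (1.03 ± 0.067, adjusted p = 8.67e-15), and it was already higher in the WT line at day 0, by 0.79. The 2 windows of Ifit1bl1, in contrast, each held a match. The rise of Ifit1bl1, by 0.31 ± 0.12, was lost when WT replicate 1, WT replicate 3, EV replicate 1 or EV replicate 3 was left out, and in 2 further settings.

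**Figure D2:**
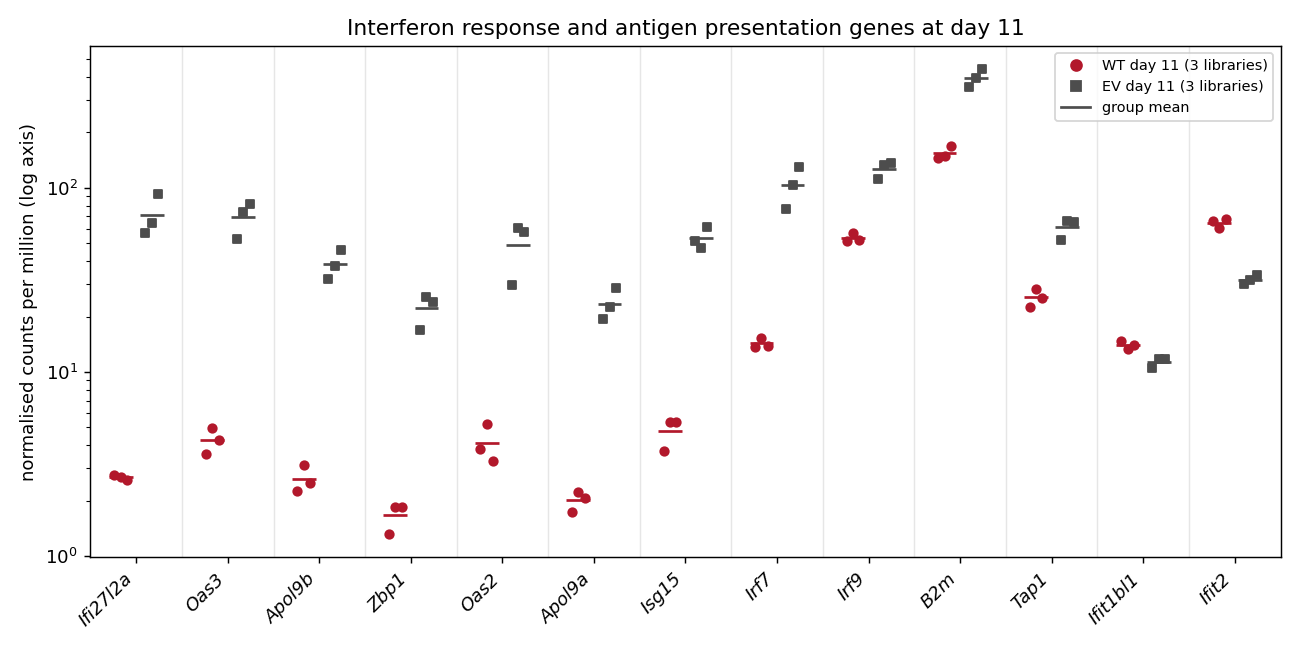
CPM on a log axis of 11 interferon response and 2 antigen presentation genes in the 3 WT (circles) and 3 EV (squares) libraries of day 11, with horizontal lines at the group means. Every gene but Ifit1bl1 and Ifit2 has its WT libraries below its EV libraries; Ifi27l2a lies between 2.61 and 2.77 CPM in WT and between 56.7 and 92.5 CPM in EV.

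Genes best known as interferon-gamma targets followed the same direction. Of 23 tested, 17 fell and 1 rose, with a median of -1.55. Gbp2 and Gbp3, guanylate-binding proteins that attack intracellular parasites, differed by -1.55 ± 0.13 and -2.54 ± 0.23. Irgm1 and Irgm2, immunity-related GTPases, differed by -0.94 ± 0.082 and -1.61 ± 0.15. Gbp8 was the exception, at 0.470, 0.654 and 0.346 CPM in WT and 0.0398, 0.111 and 0.151 CPM in EV. Under the stricter low-count filter, which tests fewer genes, 10 members passed as lower.

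Antigen presentation by MHC class I was lower in WT for 19 of 24 genes tested and higher for 1, with a median of -0.48. B2m, the light chain of every class I molecule, read 145, 149 and 169 CPM in WT, against 354, 393 and 439.9 CPM in EV (-1.36 ± 0.12). Tap1, a subunit of the peptide transporter, read 22.6, 28.2 and 25.3 CPM in WT and 51.8, 66.4 and 65.5 CPM in EV (-1.27 ± 0.11). Tapbp (tapasin), which loads peptides, differed by -0.43 ± 0.046 and the class I-like gene H2-T23 by -0.85 ± 0.078. Erap1, which trims peptides, was the member that rose, by 0.29 ± 0.061. Of 8 MHC class II genes tested, H2-Ab1 (-1.11 ± 0.19) and H2-DMa (-0.40 ± 0.13) fell, the fall of H2-DMa being lost without WT replicate 1 or EV replicate 3. Their transactivator Ciita was at 0.0458 to 0.202 CPM in WT and 0.159 to 0.278 CPM in EV.

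Interferon genes themselves were hardly measured. Ifnb1, Ifna4, Ifnk, Ifnl2, Ifnl3 and Ifng did not pass the low-count filter. Ifne, an epithelial interferon of the reproductive tract, read 0.917, 1.47 and 0.937 CPM in WT and 0.770, 0.612 and 0.543 CPM in EV, a rise lost without WT replicate 2, EV replicate 2 or EV replicate 3. Of 30 ligands, receptors and sensors tested, 17 fell and 3 rose, with a median of -0.15. Adar, which edits double-stranded RNA, differed by -0.62 ± 0.054 and Stat3 by -0.42 ± 0.034. The sensors Tlr3 and Tlr4 rose by 0.39 ± 0.060 and 0.45 ± 0.053, and the flagellin receptor Tlr5 fell by 1.52 ± 0.13 on the log2 scale. Only 11 members of this list were lower without WT replicate 2, and also 11 when the fit held only the groups compared.

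The interferon list differed less at the earlier days. At day 0 the list had 9 members higher and 3 lower in the WT line, with a median of 0.06 (background 9.90% higher, 12.8% lower). At day 1 it had 11 higher and 34 lower with a median of -0.29 (background 29.6% higher, 30.9% lower). The difference at day 11 less that at day 0, tested directly, was below 0 for 58 of the 63 members and above 0 for none, with a median of -1.76 (background 10.5% below, 10.9% above). Less that at day 1, it was below 0 for 50 members and above 0 for 3, with a median of -1.17 (background 20.4% below, 24.1% above). Over the same time, day 11 minus day 0 in EV alone had 59 members higher and 2 lower (median 1.06, background 47.6%, of which 23.1% higher and 24.6% lower). In WT alone it had 2 higher and 38 lower (median -0.45, background 22.7% higher, 24.5% lower). Summed over the list, the level per library was 2378 to 2546 CPM at day 11 and 2997 to 3177 CPM at day 0 in WT, and 4560.5 to 5297 CPM at day 11 and 2856 to 3191 CPM at day 0 in EV. Irf7 averaged 14.3 ± 0.925 CPM at day 11 and 22.8 ± 3.36 CPM at day 0 in WT, and 103 ± 25.7 CPM at day 11 and 23.6 ± 3.85 CPM at day 0 in EV (SD, n = 3 each).

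**Figure D3:**
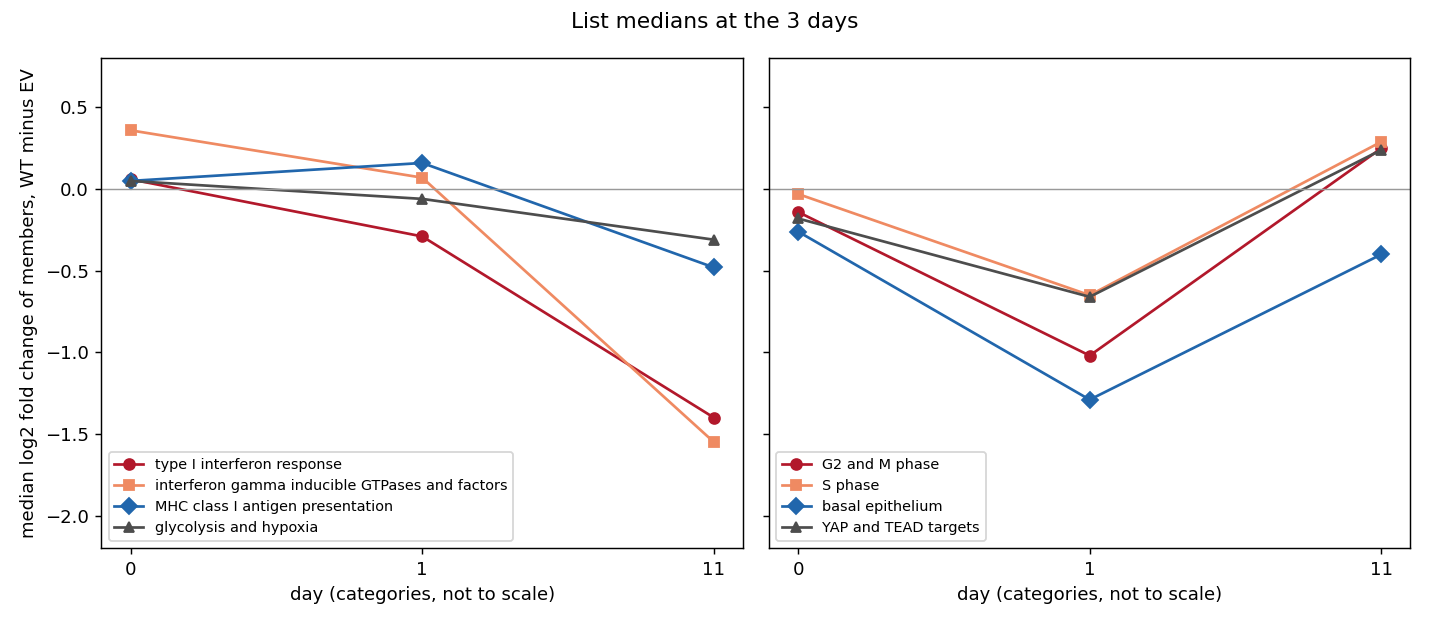
Median log2 fold change of the members of 8 gene lists in WT minus EV at days 0, 1 and 11 (days drawn as categories). The type I interferon list has medians of 0.06, -0.29 and -1.40 at the 3 days, and the G2 and M phase list of -0.14, -1.02 and 0.25.

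At the other end stood genes that were near 0 in EV. Of the 15 largest fitted rises, 9 had no count in any EV library and 4 had 2 counts there in all. Their fold is therefore bounded by a floor of 3 counts over the group or given with a 95% counting interval. The interval covers counting error only and takes each count as independent. If both reads of a pair were counted, the intervals would be wider and the bounds lower. Sbp, which encodes spermine-binding protein, a secreted product of the mouse ventral prostate, read 36.8, 22.6 and 28.7 CPM in WT and 0 in each EV library, at least 2137-fold higher. Its near copy Sbpl averaged 10.6 ± 1.70 CPM in WT (SD, n = 3) and was 0 in each EV library, at least 764-fold higher. Tff1, a trefoil peptide of mucosal surfaces, read 11.1, 9.89 and 13.1 CPM in WT and had 2 counts in EV, a ratio of 1211 (interval 335 to 10004). Kcne2, a potassium channel subunit, had 1828 counts in WT and 2 in EV, a ratio of 872 (interval 241 to 7204).

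Several of these genes are better known from other tissues. Myh7, the slow cardiac myosin heavy chain, read 16.9, 17.1 and 16.8 CPM in WT and 0 in EV, at least 1207-fold higher. No striated muscle marker, Myh7 included, passed for the difference at day 11 less that at day 0. Fgb, a fibrinogen chain made by liver, read 4.45, 3.60 and 4.87 CPM in WT and 0 in EV, at least 308-fold higher, although DESeq2 did not call it. Cd22, a lectin of B cells, read 6.05, 4.34 and 4.77 CPM in WT and 0 in EV, at least 366-fold higher. Hamp2, a hepcidin gene, and Eya1, a developmental transcription co-factor, were at least 609.8-fold and at least 389-fold higher. The 9 genes at 0 in EV lay between 3.60 and 36.8 CPM in every WT library. Of 7 prostate and seminal vesicle secretion genes tested, with 13 below the low-count filter, 3 rose (Sbp, Sbpl and Ceacam10) and 2 fell (Mmp7 and Apof), or 1 without WT replicate 1.

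**Figure D4:**
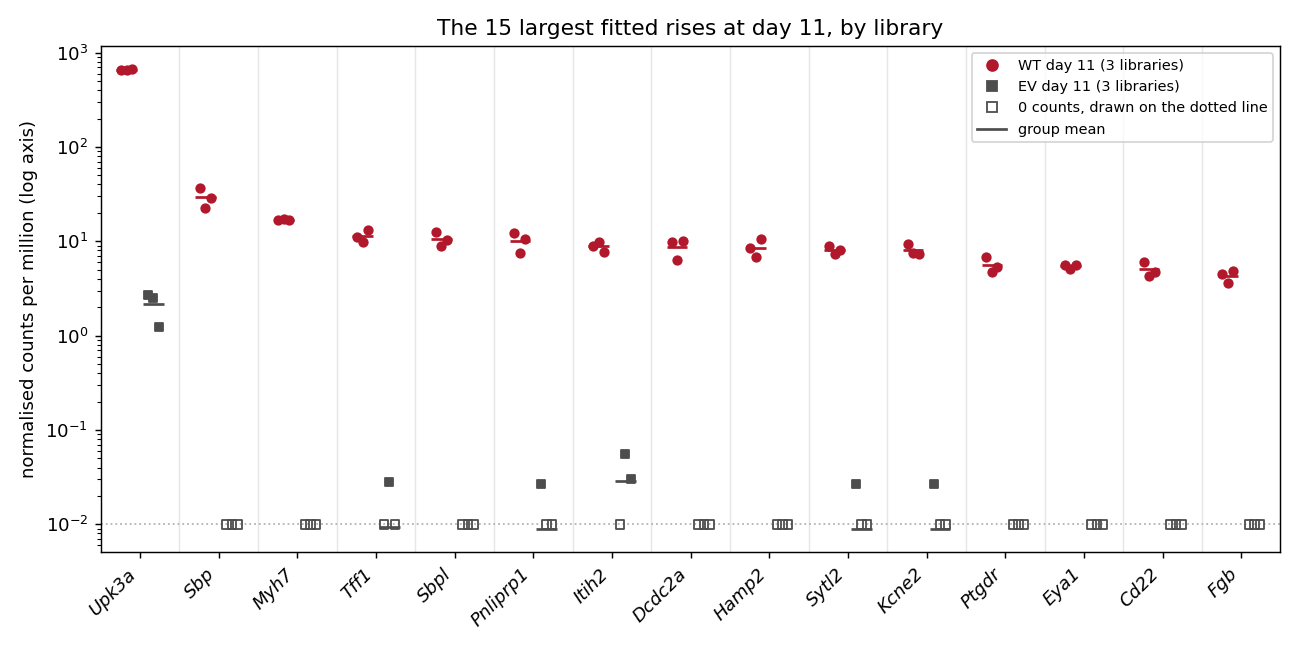
CPM on a log axis of the 15 genes with the largest fitted rises, in the 3 WT (circles) and 3 EV (squares) libraries of day 11, with lines at the group means; libraries without a count are open symbols on the dotted line. Upk3a stands at 654 to 671 CPM in WT and 1.24 to 2.67 CPM in EV, and the other 14 genes lie between 3.60 and 36.8 CPM in WT.

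The uroplakins Upk3a and Upk1b were among the large rises of genes measured in both groups. Uroplakins form the plaques that seal the surface of the bladder lining. Upk3a read 654, 657 and 671 CPM in WT, against 2.67, 2.53 and 1.24 CPM in EV (8.25 ± 0.20, adjusted p = 2.60e-21). Upk1b, its partner in the plaque, read 129, 132 and 131 CPM in WT and 1.23, 1.29 and 0.965 CPM in EV (6.80 ± 0.13). Upk1a rose by 1.23 ± 0.19, Upk2 stood at 0.677 to 0.863 CPM in WT and 0.603 to 0.902 CPM in EV, with groups that overlapped, and Upk3bl fell by 0.72 ± 0.14 on the log2 scale. Over the urothelium list of 15 genes tested, 8 rose and 2 fell, with a median of 0.59. Fgfr3, a growth factor receptor, and Foxq1, a forkhead factor, rose by 0.55 ± 0.067 and 0.81 ± 0.055, and Klf5 fell by 0.46 ± 0.042 on the log2 scale.

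Airway and gut secretory genes gave similar contrasts. Scgb1a1, the secretoglobin of airway club cells, read 578, 534 and 732 CPM in WT, against 6.75, 2.98 and 5.61 CPM in EV (6.91 ± 0.19, adjusted p = 1.69e-20). Reg3g, an antibacterial lectin, read 36.9, 38.0 and 33.3 CPM in WT and 0.292, 0.223 and 0.317 CPM in EV (7.02 ± 0.22). Clca1, a secreted protein of goblet cells, read 233, 189 and 213 CPM in WT and 4.19, 4.03 and 3.98 CPM in EV (5.70 ± 0.100). The milk and mucosal iron-binding protein Ltf fell instead, at 194, 229 and 229.9 CPM in WT and 751, 859 and 944 CPM in EV (-1.97 ± 0.090). Of 10 airway and alveolar genes tested 7 rose and 2 fell, and of 14 trefoil, mucin and goblet cell genes 5 rose and 3 fell, of which rises numbered 3 when only the groups compared were fitted and falls 1 without WT replicate 1. The fall of Sftpd was lost without WT replicate 1 or EV replicate 3. The airway list was already higher in the WT line at day 0, with 7 members higher, none lower and a median of 1.42.

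Ciliary genes moved in part. Of 17 motile cilia genes tested 8 rose and 2 fell, with a median of 0.66. The rises numbered 5 when only the groups compared were fitted, and the falls 1 without WT replicate 1, WT replicate 3 or EV replicate 3. Foxj1, the master factor of motile cilia, averaged 24.7 ± 2.20 CPM in WT and 3.38 ± 0.853 CPM in EV (SD, n = 3 each), a difference of 2.88 ± 0.14. Dnaic1, a dynein arm chain, rose by 2.06 ± 0.16, and Rsph1, a radial spoke protein, fell by 0.96 ± 0.17 on the log2 scale. Both structural genes stood at 2.23 CPM or less in all 6 libraries.

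Basal genes were lower in WT. Of 24 tested, 18 fell and 3 rose, with a median of -0.40. The list was already lower in the WT line at day 0, with 14 members lower, 1 higher and a median of -0.26. Krt5 read 2575, 2789.9 and 3224 CPM in WT, against 6104, 5927 and 5649 CPM in EV (-1.04 ± 0.055, adjusted p = 4.06e-17). Krt14, its partner in the basal filament, read 962, 989 and 1191 CPM in WT and 2516, 2619 and 2288 CPM in EV (-1.24 ± 0.068). Trp63, the basal master factor, differed less, at 310.2, 303 and 364 CPM in WT and 422, 369 and 376 CPM in EV (-0.26 ± 0.065, adjusted p = 0.00173). Krt15, Ngfr and Dlk2 were the members that rose, by 0.35 ± 0.078, 1.20 ± 0.092 and 0.63 ± 0.16. In whole-culture RNA, fewer cells of a type and less RNA per cell cannot be told apart.

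Genes of the structures that anchor basal cells were lower too. Of 21 hemidesmosome and basement membrane genes 15 fell and 3 rose, with a median of -0.34, and at day 0 the list had 9 lower, 1 higher and a median of -0.18. Col17a1, a transmembrane collagen of the hemidesmosome, read 559, 586 and 725 CPM in WT and 1446, 1420.4 and 1446 CPM in EV (-1.21 ± 0.075). Itgb4, its integrin partner, differed by -0.53 ± 0.058. The basement membrane chain Col4a1 rose by 0.58 ± 0.054 while its partner Col4a2 fell by 0.58 ± 0.063 on the log2 scale. Only 1 member of the list was still higher without WT replicate 1, and also 1 without EV replicate 2.

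Desmosome and squamous genes varied more. The desmosomal cadherin Dsg3 read 57.3, 55.2 and 85.2 CPM in WT and 337, 312 and 296 CPM in EV (-2.26 ± 0.12), while Dsg2, the cadherin of simple epithelia, rose by 0.25 ± 0.058. Of 13 desmosome genes 6 fell and 2 rose, and 10 fell without WT replicate 3. Of 31 squamous differentiation genes 18 fell and 2 rose, with a median of -0.86. Krt6a read 251, 265 and 338 CPM in WT and 739, 764 and 628 CPM in EV (-1.32 ± 0.078), and Dsg4 differed by -3.07 ± 0.20. Sprr1a, a cornified envelope precursor, went the other way, at 94.7, 98.4 and 157 CPM in WT and 37.8, 38.9 and 35.8 CPM in EV (1.64 ± 0.18). This list was already lower at day 0, where 21 of its members fell and 1 rose in the WT line with a median of -1.02.

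Luminal genes split evenly, with 9 of 24 higher, 9 lower and a median of -0.00. Krt18 read 656, 696 and 702 CPM in WT and 435, 467 and 455 CPM in EV (0.60 ± 0.042), and Krt19 rose by 0.52 ± 0.049. Krt8, the partner of Krt18, read 283, 308 and 305 CPM in WT and 316, 364 and 315 CPM in EV and did not pass (adjusted p = 0.0790). Krt7 fell by 0.27 ± 0.045 on the log2 scale. Spdef, an ETS factor of luminal and goblet cells, read 9.32, 10.3 and 9.38 CPM in WT and 0.226, 0.209 and 0.121 CPM in EV (5.68 ± 0.23). Clu, the secreted chaperone clusterin and a member of the progenitor list, read 1469, 1612 and 1896 CPM in WT and 337, 313 and 352 CPM in EV (2.31 ± 0.11).

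Androgen response genes were split too, with 9 of 24 higher, 12 lower and a median of -0.20. Homer2 rose by 2.57 ± 0.080. Fkbp5, a classical target, read 31.8, 30.3 and 27.3 CPM in WT and 94.7, 86.5 and 90.4 CPM in EV (-1.60 ± 0.057). Zbtb16, Sgk1 and Tsc22d3, which glucocorticoid also induces, differed by -2.93 ± 0.12, -1.12 ± 0.079 and -1.03 ± 0.063. Pbsn, the probasin gene, had no count in any of the 6 libraries. The positional factors Hoxb13 and Hoxd13 fell by 0.25 ± 0.054 and 0.53 ± 0.035 on the log2 scale, within a Hox and positional list where 8 of 34 rose and 8 fell.

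Genes of DNA replication and mitosis were mostly higher in WT at this time. Of 41 S phase genes 33 rose and none fell, with a median of 0.29, and 1 passed as lower without WT replicate 2 or without EV replicate 3. Mcm6, a subunit of the replicative helicase, read 408, 385 and 397 CPM in WT and 253, 248 and 248 CPM in EV (0.67 ± 0.045). Exo1 and Dtl rose by 0.75 ± 0.065 and 0.66 ± 0.059. Of 50 G2 and M phase genes 34 rose and 1 fell, with a median of 0.25. Mki67, the proliferation marker, read 301, 294 and 274 CPM in WT and 228, 217 and 203 CPM in EV (0.42 ± 0.082, adjusted p = 8.97e-05). Cdc25b, the phosphatase that activates mitotic CDK1, was the member that fell, by 0.37 ± 0.046 on the log2 scale.

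The order of the groups differed between days. At day 1 all 50 G2 and M phase genes were lower in WT, with a median of -1.02, and at day 0 none was higher and 14 were lower. Day 11 minus day 0 was below 0 for all 50 in WT and for all 50 in EV, with medians of -0.61 and -1.02. Mki67 stood at 289.6 ± 14.2 CPM at day 11 and 428 ± 19.9 CPM at day 0 in WT, and 216 ± 12.9 CPM at day 11 and 455 ± 13.3 CPM at day 0 in EV (SD, n = 3 each). Among G1 regulators 8 of 19 rose and 6 fell, against 5 and 3 without WT replicate 1, and the falls numbered 2 with total count scaling. Ccne2 and Ccnd2 rose by 0.65 ± 0.100 and 0.31 ± 0.055, and the CDK inhibitors Cdkn1a and Cdkn2d fell by 0.39 ± 0.053 and 0.59 ± 0.069 on the log2 scale.

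Metabolic lists differed in direction. Of 32 glycolysis and hypoxia genes 24 fell and 1 rose, with a median of -0.31, and none rose without WT replicate 1 or EV replicate 3. Slc2a1, the glucose transporter GLUT1, read 213, 222 and 270.1 CPM in WT and 380.3, 363 and 347 CPM in EV (-0.63 ± 0.057), Hk1 differed by -0.48 ± 0.043, and the lactate exporter Slc16a3 by -1.37 ± 0.15. Of 55 nuclear-encoded respiratory chain genes 22 rose and 1 fell, with a median of 0.11. The count of rises was 34 with total count scaling and 11 without EV replicate 2. Of 56 cytosolic ribosomal protein genes 13 fell and none rose, with a median of -0.07. The falls numbered 6 without WT replicate 1, 7 without EV replicate 1 and 8 without EV replicate 3. Over all genes 21.0% rose and 19.7% fell, so the ribosomal falls of the main fit were near the background share. Without EV replicate 2 the respiratory chain rises were near the background share too.

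Stress response lists were mixed. Of 24 genes of the unfolded protein and integrated stress responses 14 fell and 4 rose, or 2 rose without EV replicate 2, with a median of -0.16. Hspa5, the chaperone BiP, differed by -0.26 ± 0.044, and Psat1 and Asns, enzymes of amino acid synthesis, by -0.57 ± 0.054 and -0.52 ± 0.064. Of 30 genes of antioxidant and xenobiotic metabolism 12 fell and 7 rose, with a median of -0.31. At day 0 this list already had 12 members lower and 7 higher in the WT line, with a median of -0.16. Gsta3, a glutathione transferase, read 4.44, 4.37 and 4.97 CPM in WT and 71.5, 59.3 and 72.8 CPM in EV (-3.89 ± 0.11), and the cystine transporter Slc7a11 differed by -1.83 ± 0.12. Aldh1a1, a retinaldehyde dehydrogenase, rose by 1.76 ± 0.080. Of 30 p53 targets 9 rose and 8 fell, with a median of -0.03. Of 34 cholesterol and fatty acid synthesis genes 8 rose and 7 fell. These falls numbered 3 without WT replicate 1 or EV replicate 3, 4 without WT replicate 2 and 4 with DESeq2, and the rises 4 without EV replicate 2.

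More immediate early and inflammatory genes fell than rose. Of 25 AP-1 and immediate early genes 13 fell and 3 rose, with a median of -0.33. Jun read 176, 180.2 and 207 CPM in WT and 309, 315 and 292 CPM in EV (-0.70 ± 0.048), and Klf4 differed by -1.08 ± 0.091. Of 27 NF-kB targets 12 fell and 4 rose, or 2 rose without WT replicate 3. Those that fell included Tnfaip2 (-1.03 ± 0.067) and the feedback inhibitor Tnfaip3 (-0.59 ± 0.059). Of 33 cytokines and chemokines 16 fell and 10 rose, with a median of -0.31. At day 0 this list already had 12 members lower and 8 higher in the WT line, with a median of -0.22. Ccl2 read 0.481, 0.416 and 1.30 CPM in WT and 6.21, 5.50 and 4.45 CPM in EV (-2.90 ± 0.28, or -3.57 without WT replicate 3). Il1a differed by -2.34 ± 0.25, or by -3.08 without WT replicate 3. Cxcl5, a neutrophil chemokine, went up, at 322, 306 and 316 CPM in WT and 62.8, 81.4 and 74.3 CPM in EV (2.11 ± 0.16). Of 20 complement and acute phase genes 10 fell and 3 rose, and the falls numbered 5 without WT replicate 1 and 6 under the stricter low-count filter. C3 and Lcn2 differed by -0.98 ± 0.14 and -1.34 ± 0.15, and C4b rose by 3.43 ± 0.25.

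Signalling genes were uneven within each pathway. Of 39 Wnt genes 21 fell and 6 rose, with a median of -0.35. The ligands Wnt10a and Wnt9a differed by -1.56 ± 0.100 and -1.67 ± 0.13, the Wnt inhibitor Notum by -1.67 ± 0.12, and the receptors Fzd3 and Fzd5 rose by 1.29 ± 0.099 and 0.80 ± 0.073. Of 36 BMP and TGF-beta genes 19 fell and 7 rose, with a median of -0.29. At day 0 this list already had 15 members lower and 8 higher in the WT line, with a median of -0.24. The antagonist Sostdc1 read 0.871, 1.01 and 1.27 CPM in WT and 19.7, 16.9 and 16.8 CPM in EV (-4.09 ± 0.18), a difference already present at day 0 (-5.27). The ligands Tgfb2 and Bmp4 rose by 1.46 ± 0.10 and 3.22 ± 0.27, and Bmp7 fell by 0.68 ± 0.054 on the log2 scale. Of 17 Notch genes 7 fell and 5 rose. The receptor Notch1 and the ligand Jag1 differed by -0.86 ± 0.073 and -0.91 ± 0.076, and the target Hey1 rose by 1.88 ± 0.18.

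Growth factor genes moved in both directions, and more YAP and TEAD targets rose than fell. Of 30 EGF and FGF genes 13 rose and 9 fell, with a median of 0.06. With only the groups compared in the fit 8 rose and 8 fell, and without WT replicate 3 and EV replicate 1, 7 rose and 7 fell. Fgfr1 rose by 1.43 ± 0.11 and Lrig1, a brake on EGF receptors, by 0.80 ± 0.054, while the ligand Hbegf fell by 0.73 ± 0.080 on the log2 scale. Of 20 YAP and TEAD targets 11 rose and 3 fell, with a median of 0.24. Ankrd1, F3 (tissue factor) and Ptpn14 rose by 1.48 ± 0.17, 0.97 ± 0.087 and 0.81 ± 0.086. Tead4, one of the 3 that fell, lost its call in 12 of 15 settings.

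Transcription factors moved in both directions. Of 25 forkhead genes 9 rose and 10 fell, and of 52 other epithelial factors 16 rose and 21 fell. The forkhead falls numbered 5 without WT replicate 1 and 6 without EV replicate 3 or when only the groups compared were fitted. Besides Foxj1, Foxq1 and Foxd2 rose (Foxd2 by 1.86 ± 0.32), and Foxc1 fell by 0.83 ± 0.058 on the log2 scale. The retinoic acid receptor Rarb rose by 1.74 ± 0.092 while Rarg fell by 0.44 ± 0.040 on the log2 scale. Tfcp2l1 read 172, 188 and 181 CPM in WT and 442, 445 and 432 CPM in EV (-1.29 ± 0.083), and Tfap2c differed by -0.93 ± 0.053. Of 10 foregut, liver and gut factors tested 4 rose and 2 fell, and 2 rose when only the groups compared were fitted. Cdx2, an intestinal master factor, read 10.6, 11.5 and 9.71 CPM in WT and 4.06, 4.35 and 4.39 CPM in EV (1.31 ± 0.12).

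Matrix, junction and transport genes completed the picture of the epithelium. Of 34 collagen and matrix genes 11 fell and 8 rose, with a median of -0.47. At day 0 this list already had 15 members lower and 3 higher in the WT line, with a median of -0.52. Col16a1 differed by -1.14 ± 0.078 and Mmp7, a protease of secretory epithelia, by -1.52 ± 0.10, while Fn1 (fibronectin) read 84.1, 64.3 and 81.4 CPM in WT and 24.4, 19.2 and 14.4 CPM in EV (1.98 ± 0.22). Thbs2 differed by -2.17 ± 0.21, or by -2.76 without WT replicate 3. Of 17 claudin and tight junction genes 5 rose and 2 fell. Cldn1 differed by -1.96 ± 0.11, and Cldn2, which forms a cation pore, rose by 4.90 ± 0.49, or by 6.44 without EV replicate 2. Of 27 ion and water transport genes 11 rose and 8 fell. Aqp5 read 40.1, 36.9 and 36.2 CPM in WT and 7.59, 9.88 and 11.0 CPM in EV (1.99 ± 0.12), and the sodium channel subunit Scnn1g rose by 3.15 ± 0.16 while Scnn1a fell by 1.28 ± 0.099 on the log2 scale. Of 17 brush border genes 6 fell and 3 rose, or 5 rose without EV replicate 2, with Vil1 (villin) at -2.91 ± 0.37. Of 24 progenitor and surface markers 10 fell and 8 rose. Of 15 mesenchymal transition genes 5 rose and 5 fell, with the epithelial repressor Snai2 (Slug) at -0.59 ± 0.047.

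Among the 15 largest falls were also genes of no interferon list. Adgrg7, an adhesion receptor, had 21 counts in all in WT and 3194 in EV, where it read 17.0, 11.3 and 16.6 CPM, a difference of -7.29 ± 0.45, and it was already lower at day 0 (-4.76). Misp, a mitotic spindle positioning protein, differed by -4.62 ± 0.20. Spink5, a protease inhibitor of squamous epithelium, read 6.89, 4.91 and 9.21 CPM in WT and 118, 94.5 and 110.2 CPM in EV (-3.94 ± 0.14). Trpv6, a calcium channel, and Klk8, a kallikrein, differed by -3.56 ± 0.25 and -3.53 ± 0.20.

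Markers of other cell types were mostly low, with exceptions such as Cd14 and Acta2. Ptprc, Cd3e and Adgre1, which define leukocytes, did not pass the low-count filter. The 9 immune markers tested summed to 154 to 173 CPM in WT and 102 to 119.6 CPM in EV, of which Cd14, also made by epithelium, gave 147, 156 and 167 CPM in WT and 96.8, 104 and 113 CPM in EV. Csf1r, a macrophage receptor, read 3.52, 2.26 and 2.51 CPM in WT and 0.0796, 0.0556 and 0.0302 CPM in EV. The 10 fibroblast and smooth muscle markers tested summed to 41.7 to 43.9 CPM in WT and 18.1 to 32.0 CPM in EV, with 3 higher and 1 lower, and none lower on leaving out any 1 library but EV replicate 1. Acta2, smooth muscle actin, read 27.8, 27.2 and 29.3 CPM in WT and 11.4, 8.82 and 5.90 CPM in EV (1.69 ± 0.18). The 6 endothelial markers summed to 6.07 to 6.99 CPM in WT and 5.07 to 6.66 CPM in EV (3 higher, or 1 without EV replicate 3, and 1 lower), and the 3 neuroendocrine markers to 0.584 to 0.625 CPM in WT and 0.624 to 0.946 CPM in EV (none higher, 2 lower). Both of these lower calls were lost without WT replicate 1, WT replicate 2 or EV replicate 2. The 8 striated muscle markers tested summed to 32.5 to 37.4 CPM in WT and 37.9 to 41.3 CPM in EV, with 2 higher, Myh7 and Myh6, and 3 lower. The part of such cells in the other differences was not tested.

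Levels in the organoids with the variants were set beside WT at the same day. FE255del and R219S minus EV use the same 3 EV libraries, so values of the constructs against EV are given side by side and only WT minus variant is tested as a difference. FE255del minus EV called 42.2% of genes and R219S minus EV 32.1%. WT differed from FE255del at 3213 genes (17.7%) and from R219S at 8883 genes (48.9%). With R219S, 49.3% of the calls were higher in WT, or 63.3% with total count scaling, which put the median of all genes at 0.102. With Foxa1, the difference was -0.14 ± 0.060 (adjusted p = 0.124) from FE255del and 0.00 ± 0.060 (adjusted p = 0.998) from R219S, and neither passed.

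Scgb1a1 set WT apart from both variants. It averaged 615 ± 104 CPM in WT, 0.963 ± 0.279 CPM in FE255del, 0.510 ± 0.0753 CPM in R219S and 5.11 ± 1.94 CPM in EV (SD, n = 3 each), and WT minus FE255del was 9.32 ± 0.22 (adjusted p = 2.13e-20). Upk3a averaged 661 ± 9.41 CPM in WT, 934 ± 78.7 CPM in FE255del and 0.214 ± 0.278 CPM in R219S, with WT minus FE255del at -0.50 ± 0.14 (adjusted p = 0.0103) and WT minus R219S at 11.62 ± 0.26. Upk1b was higher in WT than in FE255del by 1.06 ± 0.088. Tff1 averaged 11.3 ± 1.62 CPM in WT, 0.204 ± 0.0733 CPM in FE255del and 15.9 ± 1.16 CPM in R219S, and WT minus R219S did not pass (-0.49 ± 0.23, adjusted p = 0.0783). Clca1 was lower in WT than in FE255del by 1.93 ± 0.078 on the log2 scale.

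The interferon list was lower in WT than in either variant for many members. Of 63 genes, 40 were lower and 2 higher in WT than in FE255del (median -0.40, background 9.75% lower, 7.92% higher). Against R219S, 59 were lower and 3 higher (median -1.23, background 24.8% lower, 24.1% higher). Against EV itself, 56 members were lower and 4 higher in FE255del (background 19.6% lower, 22.6% higher), and 11 lower and 3 higher in R219S (background 14.4% lower, 17.7% higher). Irf7 averaged 14.3 ± 0.925 CPM in WT, 26.2 ± 8.90 CPM in FE255del, 71.1 ± 18.2 CPM in R219S and 103 ± 25.7 CPM in EV (SD, n = 3 each), with WT minus FE255del at -0.88 ± 0.23 (adjusted p = 0.00663) and WT minus R219S at -2.32 ± 0.23. B2m, in contrast, averaged 154 ± 12.9 CPM in WT and 179.9 ± 23.3 CPM in FE255del, a difference that did not pass (-0.22 ± 0.12, adjusted p = 0.221). Spink5 was lower in WT than in FE255del by 4.10 ± 0.14 on the log2 scale. Krt5 and Krt14 differed from FE255del by -0.02 ± 0.054 and 0.13 ± 0.067, neither passing, and from R219S by -1.15 ± 0.055 and -1.45 ± 0.068.

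**Figure D5:**
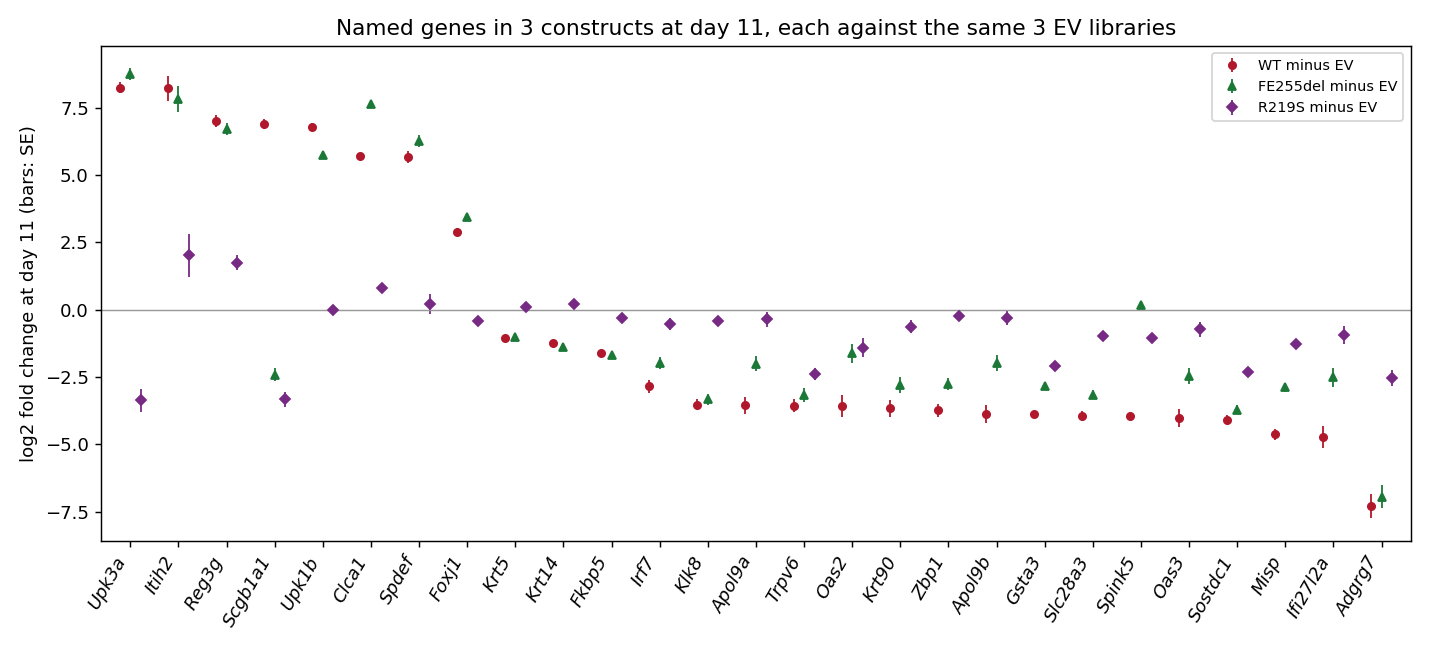
Log2 fold change at day 11 with its SE for WT (circles), FE255del (triangles) and R219S (diamonds), each against the same 3 EV libraries, for named genes with more than 3 counts in EV. Scgb1a1 lies at 6.91 for WT, -2.41 for FE255del and -3.33 for R219S, and Irf7 at -2.85, -1.97 and -0.53.

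The WT line already differed from the EV line at day 0, at 4132 genes (22.7%). Of the 3810 genes higher at day 11, 1099 (28.8%, and 61.1% of those higher at day 0) were higher at day 0 and 156 were lower there. Of the 3575 genes lower at day 11, 1492 (41.7%, and 64.0% of those lower at day 0) were lower at day 0 and 154 were higher. Sostdc1, Adgrg7 and Spdef were among the genes already apart, with Spdef at 1.34 ± 0.323 CPM in WT and 0.0623 ± 0.0720 CPM in EV at day 0 (SD, n = 3 each). The difference at day 11 itself differed from that at day 0 at 3897 genes (21.4%).

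Against day 1, where 10994 genes (60.5%) differed, the shared genes were a larger part of the day 11 calls and a smaller part of the other day's. Of the genes higher at day 11, 2226 (58.4%, and 41.4% of those higher at day 1) were higher at day 1 and 839 lower. Of those lower at day 11, 2374 (66.4%, and 42.3% of those lower at day 1) were lower at day 1 and 465 (13.0%) higher. At day 1, 49.0% of calls were higher in WT, or 60.8% with total count scaling, which put the median of all genes at 0.104. Genes opposite at the 2 days included Nos2, the inducible nitric oxide synthase, at 3.91 ± 0.986 CPM in WT and 29.3 ± 5.42 CPM in EV at day 11 (SD, n = 3 each). Its difference was -2.90 ± 0.18 at day 11 and 1.44 ± 0.15 at day 1. Ankrd1 was the reverse, at 1.48 ± 0.17 on day 11 and -4.24 ± 0.24 on day 1. Slc40a1, the iron exporter ferroportin, differed by 1.22 ± 0.059 on day 11 and -1.74 ± 0.065 on day 1. Some of the genes near 0 in EV had lower levels in WT on day 11 than on day 1. Sbp averaged 29.4 ± 7.15 CPM on day 11 and 257 ± 9.02 CPM on day 1 in WT (SD, n = 3 each). Kcne2 averaged 8.06 ± 1.05 CPM on day 11 in WT and read 252, 272 and 266 CPM on day 1. Scgb1a1 had the opposite order in WT, with 615 ± 104 CPM on day 11 and 26.0 ± 2.21 CPM on day 1 (SD, n = 3 each).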

How the data were processed

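Polyadenylated RNA of 36 libraries was sequenced from stranded libraries, and the submitters' processing notes list mm10 as the build, with STAR (version 2.4.2a) and featureCounts (version 1.4.3) as tools. The authors deposited an expected count per gene and library, within 3e-09 of whole numbers, which were rounded. The annotation release and the strand setting are not given in the sources used here, so antisense and overlapping genes cannot be told apart. Low counts were mostly even (69.7% of counts of 1 to 20), as when both reads of a pair are counted. Whether day 0 cultures had doxycycline is not given in the labels used here.

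A single edgeR 4.0.16 quasi-likelihood model (R 4.3.3) with 12 group means was fitted to the 18176 of 45232 genes that passed filterByExpr, with TMM scaling (factors 0.938 to 1.08) and Benjamini-Hochberg adjustment over all genes. The standard error is the absolute log2 fold change fitted without the prior count, divided by the root of F. The log2 fold changes printed include the prior count. The procedure was tested on simulated data. Genes named are a fixed panel, the 15 largest changes each way among genes averaging 2 CPM or more with separate groups (predicted genes left out), up to 4 members per direction of each list and every member of lists of 12 or fewer, 8 per direction of each day interaction, 6 per direction opposite to day 1, and 8 factors per direction, with 9 more chosen after their values were seen (Isg15, Ifit1, Rsad2, Oasl2, Irf1, Neat1, Snhg20, Mir17hg and Leng8). The members and gene lists were chosen with earlier results of these data known. DESeq2 1.42.0, other scalings, filters, the replicate block and leaving out libraries were tried as alternatives. Results for a few genes are not reported here.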

Additional observations from a re-analysis of the deposited data

Results flagged for a closer look

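The difference between WT and EV changed with time, by tests of the difference between days in edgeR's model, at 3897 genes between days 0 and 11 and at 8081 genes between days 1 and 11. Genes with the largest such changes are given. Values are the log2 difference at day 11 less that at the earlier day, and those of genes with few or no counts in a group depend on the prior count and are no bound.

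Between days 0 and 11, interferon-inducible genes had the most negative values, with Ifi27l2a at -5.69, Trim30a at -5.56, Oas2 at -4.49, Oas3 at -4.22, Apol9b at -4.01, Ifi44 at -3.94, Sp100 at -3.81 and Iigp1 at -3.79. Among the most positive values were those of Sbpl (15.32), Sbp (14.39), Dcdc2a (12.64), Kcne2 (12.24), Tff1 (9.40), Sytl2 (6.80) and Upk1b (6.73).

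Between days 1 and 11, the most negative values belonged to Fbln7 (-8.95), Siglec1 (-8.84), Slfn4 (-7.45), St8sia1 (-7.40), Amigo2 (-6.52), Hsd17b2 (-6.47), Olfm1 (-6.34) and Add2 (-6.26). The most positive belonged to Dcdc2a (8.25), the imprinted noncoding RNA H19 (7.20), Ankrd1 (5.72), Foxn1 (4.49), Prr9 (4.01), Calcb (3.96), Lce6a (3.74) and Ppbp (3.69). H19 read 11.8, 21.1 and 33.1 CPM in WT and 0.318, 0.709 and 0.121 CPM in EV at day 11, a difference of 5.82 ± 0.39, or 6.60 without EV replicate 2.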

How the results depend on the processing

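The count of genes differing between WT and EV at day 11, 7385, was 6007 when only the groups compared were fitted and 7788 with total count scaling, 7578 with DESeq2, 6446 to 7183 with 1 library left out and 6676 without WT replicate 3 and EV replicate 1, a choice made after seeing the data. None of these settings turned a call round. WT and EV replicates of the same number correlated at -0.322, 0.592 and -0.24 in their deviations from the group mean. With 3 libraries per group these deviations depend on each other, so the values cannot decide whether samples were paired. The replicate block gave 7477 genes. With only the groups compared, WT minus FE255del had 1706 genes in place of 3213 and R219S minus EV 3817 in place of 5833, and of R219S minus EV 42.6% of calls were higher with total count scaling against 55.2%. Of 386 named genes, 36 lost their call in at least 1 of 15 settings, 6 gained one and none was reversed. Of 2250 list values recomputed, 110 moved. The stricter low-count filter left no neuroendocrine marker to give a median.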
